A study of Amphimedon queenslandica with 124 samples.

Results

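In the 7 brooded stages of the sponge Amphimedon queenslandica, 100 gene models stood out by their median spread between single embryos with the same stage label. These were chosen from the deposited counts. Of 36868 gene models, 870 had a mean of at least 7 on the log2(CPM + 1) scale over the 49 embryo libraries, where CPM is the count divided by the library total and multiplied by 1000000. The standard deviation (SD) between the embryos of a stage was taken at each stage, and the 100 gene models with the highest median over the 7 stages were kept. The last gene model inside this limit was Aqu2.1.31479_001, with a median SD of 0.888, and the first outside it was Aqu2.1.26373_001, with 0.884. The SDs and the covariation among embryos that are given below come from the libraries that made the choice, so they describe the choice and were not tested.

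The series holds 124 single individuals. RNA of each was measured with CEL-seq, which tags the RNA of every sample with a barcode and reads the 3' ends of transcripts. The embryo groups were cleavage, then brown and cloud, then spot and late spot, and last ring and late ring, with 7 individuals in each. Later groups were 13 larvae labelled free-swimming, 10 individuals labelled settlement, 34 labelled mat-formation, 3 labelled chamber-formation, 6 labelled tent-pole-formation, 5 juveniles and 3 adults. No treatment, strain or genotype is given for any group, and all individuals were taken from the field and preserved singly. The mother or brood of each embryo is not given, so p-values reflect how much individuals differ, and siblings cannot be told from unrelated individuals.

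Embryos of this sponge develop side by side in brood chambers inside the mother, so that embryos of different stages lie together. From the cloud stage on, pigment cells gather at the posterior pole into a spot and then a ring, by which the stages are named. The ciliated larva leaves the mother, swims, settles and turns through metamorphosis into a juvenile with the body plan of the adult. Levels in a whole individual mix all of its cells, so fewer cells of a type and less RNA per cell cannot be told apart. The files give identifiers only, and 0 of them matched the reference table of gene names, so no function is stated for any gene model.

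Depth was uneven. The 49 embryo libraries held 147197 to 3059409 counts, and the 13 larvae 174505 to 981293. After the larva, the 37 individuals with embryo numbers 1 to 100 held 1158 to 300386 counts, 30 of them under 100000, and the 24 with numbers 101 to 124 held 548828 to 2195894. Tests between stages after the larva were therefore made within one set of numbers. The 14 embryos at the low level described below stand apart from the other embryos in 3 gene models of very high level, which held up to 21.0% of all counts of an embryo, so these gene models alone can shift the CPM of all others.

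The SDs that chose the 100 gene models are given first, as a description. The median of their SDs was 1.05 log2 units, against 0.57 over the 870 gene models of similar level. In 3 gene models the SD was above 3, in 20 above 1.5 and in 56 above 1. The SD that counting alone would give had a median of 0.084, and the observed SD was at least 6.07 times as large in every one of the 100. Over the 870, the median of this ratio was 6.20, and over the 100 it was 13.3.

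The stage of the greatest spread was not the same for all. The SD was highest at late ring in 34 of the 100 gene models, at cleavage in 26, at late spot in 12, at brown in 11, at ring in 9, at cloud in 5 and at spot in 3. Over the 870, late ring was the stage of the highest SD in 20.0% and cleavage in 40.5%. At cleavage 29 of the 100 were among the 100 highest SDs, and at ring, where most were, 63. Only 6 of the 100 were among the 100 highest SDs at each of the 7 stages.

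Most pairs of these gene models did not vary together. Over all 4950 pairs the median Pearson correlation of the deviations from the stage means was 0.048 across the 49 embryos, and over all pairs of the 870 it was 0.066. An absolute r of at least 0.5 was found in 5.21% of the pairs of the 100 and in 6.16% of the pairs of the 870. Correlations are given here as descriptions, since all points share the libraries, their totals and the counts of the most abundant gene models. Average linkage at a distance of 0.5 left 31 gene models alone and put 69 into 20 groups, namely 1 of 13, 1 of 6, 1 of 5, 4 of 4, 3 of 3 and 10 pairs. There were 16 gene models with no absolute r of at least 0.5 to any other of the 100.

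**Figure D1:**
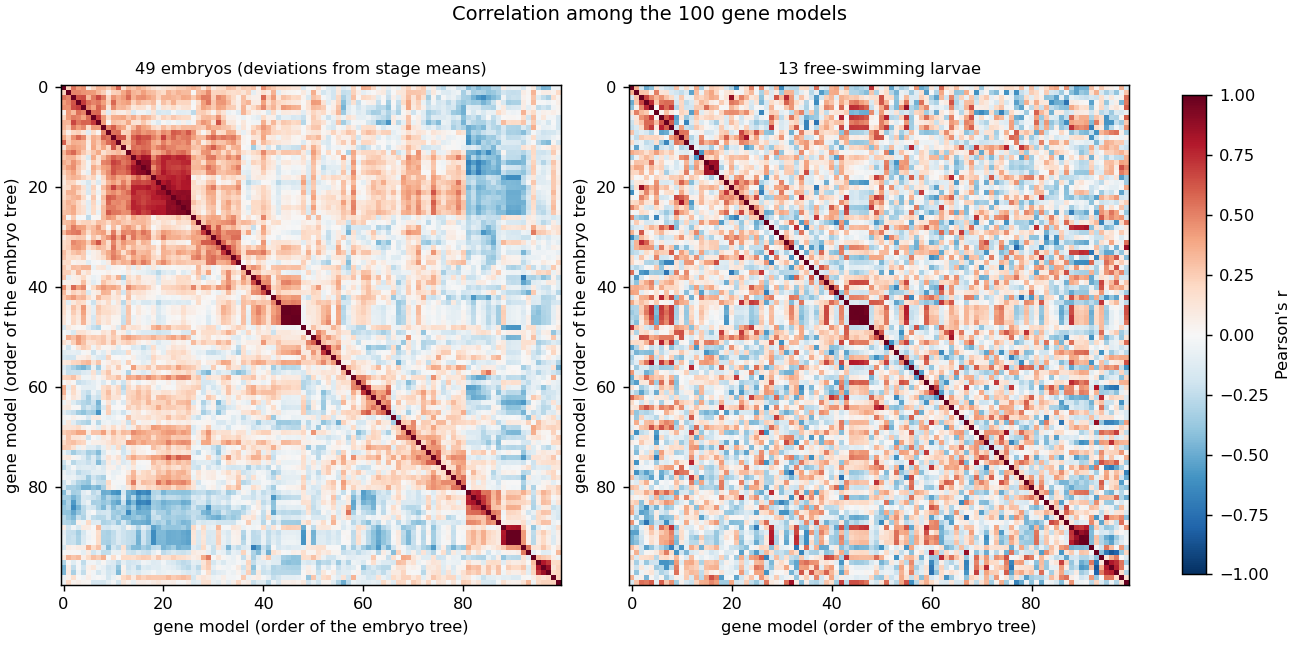
Pearson's r between the 100 gene models, in the same order on both axes and in both panels, across the deviations of 49 embryos from their stage means (left) and across 13 free-swimming larvae (right). The largest block on the left holds the group of 13, whose median r was 0.75 in embryos and 0.19 in larvae. The darkest small blocks on both sides are the sets of 4 led by Aqu2.1.00982_001 and by Aqu2.1.35836_001.

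The most variable set held 4 gene models that ranked 1, 2, 3 and 11 of 870. These were Aqu2.1.35836_001, Aqu2.1.33181_001, Aqu2.1.30620_001 and Aqu2.1.26071_001, of which the last 3 were chosen after their values were seen. Their median SDs were 3.59, 3.38, 3.11 and 1.70, and Aqu2.1.13167_001, at rank 4 of the 870, had 2.21. The first 3 did not spread evenly: embryos stood at a high or a low level with a gap between. For Aqu2.1.35836_001 no embryo lay between 7.53 and 10.61, for Aqu2.1.33181_001 none between 7.63 and 10.26, and for Aqu2.1.30620_001 none between 10.87 and 13.16.

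Aqu2.1.35836_001 showed both levels at every embryo stage. At cleavage it stood at 4.44, 5.86, 11.77, 12.90, 13.86, 13.99 and 14.48 on the log2(CPM + 1) scale in the 7 embryos. At brown 1 embryo was at 6.47 and the other 6 at 13.51 to 15.98. At cloud 4 embryos were at 5.78 to 6.31, and the highest of the other 3 was at 14.25. The gap was taken as the widest interval between neighbouring values of the 49 embryos, with at least 5 embryos on each side. By this definition no embryo can lie within it.

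The stages from spot to late ring held both levels too. The lowest, median and highest values of Aqu2.1.35836_001 were 5.24, 12.62 and 13.52 at spot, and 5.18, 12.53 and 15.09 at late spot. At ring they were 6.44, 12.29 and 14.23, and at late ring 4.44, 13.29 and 14.99. An embryo below the gap in all 3 gene models occurred in 2 of 7 at cleavage, 1 at brown, 4 at cloud, 3 at spot, 2 at late spot, 1 at ring and 1 at late ring. These are 14 of 49, and with 7 embryos a stage no order of the stages is drawn from them.

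The same embryos were low in all 3 gene models. One more embryo, ring replicate 5, was just above the gap in Aqu2.1.35836_001 and Aqu2.1.33181_001, at 10.61 and 10.26, and just below it in Aqu2.1.30620_001, at 10.87. Together the 3 gene models took 0.018% to 0.090% of all counts in the 14 low embryos, 0.466% in ring replicate 5, and 2.02% to 21.0% in the others. Totals of the 14 ran from 147197 to 1694159 counts, and those of all 49 embryo libraries, which include them, from 147197 to 3059409. The correlation of each of the 3 with the log10 total within stages lay between -0.046 and -0.0039. The 14 embryos were recognised from these levels and are given here by their values only.

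**Figure D2:**
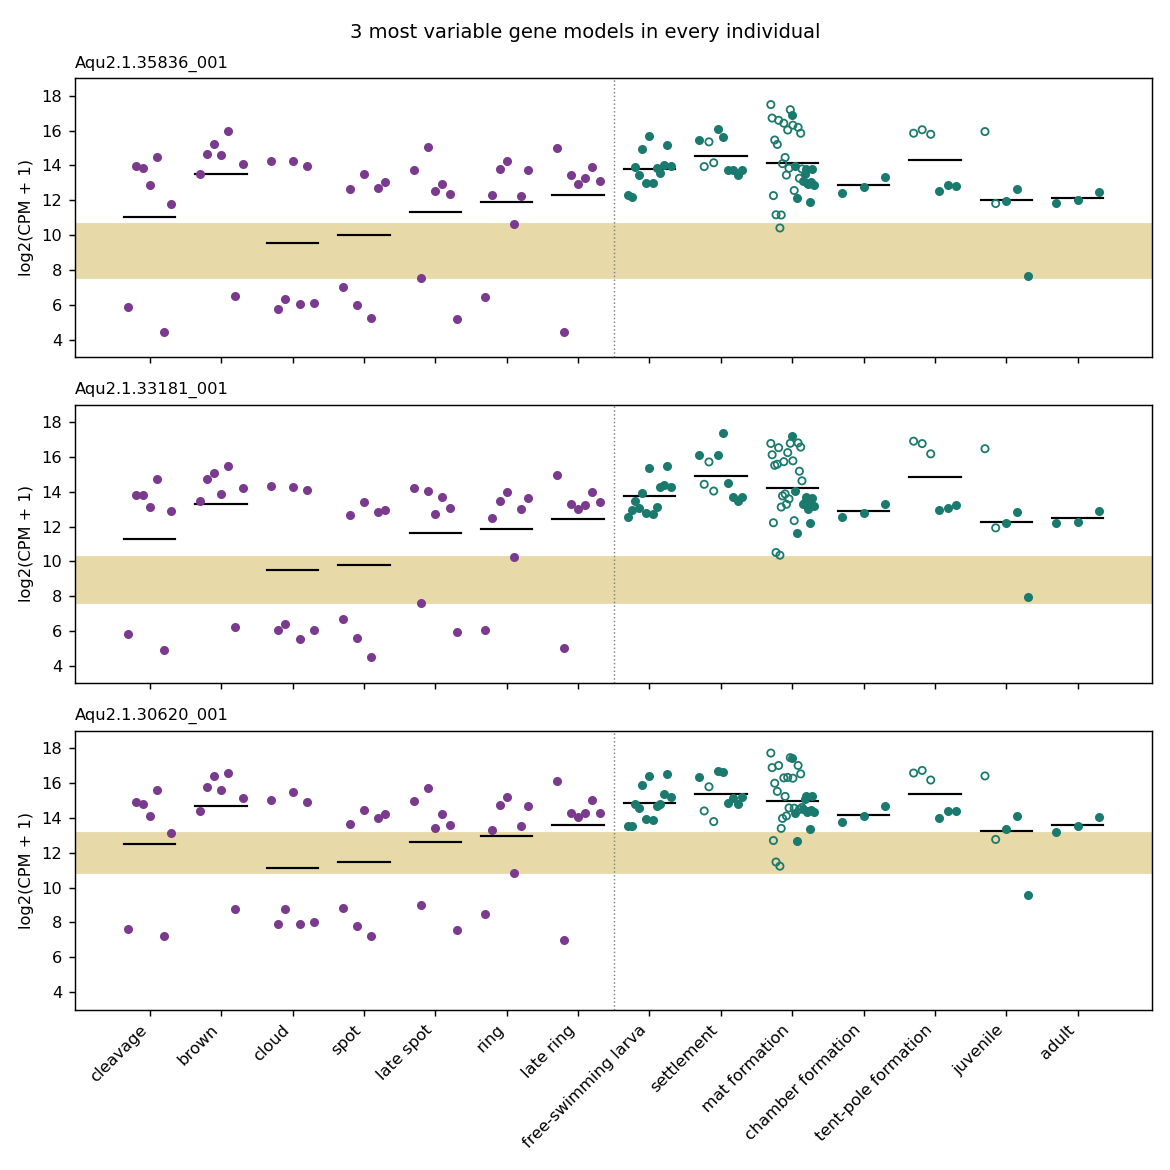
Level, as log2(CPM + 1), of the 3 most variable gene models in all 123 individuals with a stage label, embryos left of the dotted line and later stages right of it. Each circle is 1 individual, filled for libraries of at least 100000 counts and open for shallower ones. Black bars are stage means and the shaded band is the gap among the 49 embryos. The 13 larvae all lie above the band in each panel, and juvenile replicate 5 lies below its midpoint.

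A level on the low side of the gap hardly recurred after the embryo. None of the 13 larvae was below the midpoint of the gap in all 3 gene models, and 1 of the 61 individuals after the larva was. This was juvenile replicate 5, a library of 1414350 counts, at 7.64 in Aqu2.1.35836_001, 7.93 in Aqu2.1.33181_001 and 9.56 in Aqu2.1.30620_001. It lay above all 14 low embryos, whose highest values were 7.53, 7.63 and 9.01, and inside the gap in the first 2 gene models. The 3 gene models held 0.119% of its counts. With only libraries of at least 100000 counts, 1 of 31 individuals after the larva was below the midpoint in all 3. Counting individuals below the midpoint in any of the 3 gave 3 of 74 larvae and later individuals. The 4 other juveniles were at 11.82 to 15.95 in Aqu2.1.35836_001.

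Above the gap the 3 gene models still differed between individuals. In larvae Aqu2.1.35836_001 ran from 12.21 through a median of 13.83 to 15.72, with an SD of 1.05. This SD ranked 93 of the 870, while those of Aqu2.1.33181_001 and Aqu2.1.30620_001, at 0.99 and 1.00, ranked 115 and 109. In the later individuals numbered 101 to 124, the SD of Aqu2.1.35836_001 pooled within stages was 1.00, and without juvenile replicate 5 it was 0.46. For Aqu2.1.33181_001 the same values were 0.96 and 0.38, and for Aqu2.1.30620_001 0.93 and 0.48. The 3 gene models held 2.29% to 18.5% of the counts of a larva, 4.93% to 32.5% at settlement and up to 51.4% at mat-formation, the last in a library of 11274 counts.

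The 4 gene models of this set also moved together where no low embryo was present. Their median r was 0.91 across embryos, where the 2 levels dominate it. Across the 13 larvae, which hold 1 level only, it was 0.82, and across the 24 later individuals numbered 101 to 124 it was 0.78, or 0.83 without juvenile replicate 5. Counts of Aqu2.1.33181_001 and Aqu2.1.35836_001 stood close to each other, with a median ratio of 1.02 in embryos (0.493 to 2.16), 0.87 in larvae and 1.14 in numbers 101 to 124. For Aqu2.1.26071_001 the ratio to Aqu2.1.35836_001 ran from 0.00657 to 3.26 in embryos, so Aqu2.1.26071_001 followed the others in direction but not in size.

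A second set of 4, Aqu2.1.00982_001, Aqu2.1.00030_001, Aqu2.1.09853_001 and Aqu2.1.00441_001, was the tightest of all. It was chosen for description after its values were seen. These ranked 8, 13, 17 and 20. Their median r was 0.98 across embryos, 0.99 across larvae and 0.995 across numbers 101 to 124. Median count ratios to Aqu2.1.00982_001 in embryos were 1.17, 0.94 and 1.10. How reads that match near-identical copies were counted is not given in the sources used here, so whether these 4 share reads was not tested.

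A gap of at least 2 log2 units with at least 5 embryos on each side was found in 5 of the 100 gene models, and in none of the tight set. The tight set covered a wide range instead. Its mean level was 12.27 ± 0.55 (SD, n = 7) at cleavage, 10.78 ± 1.18 at brown, 9.77 ± 0.95 at cloud and 7.78 ± 1.89 at spot. At late spot it was 8.38 ± 1.65, at ring 7.47 ± 2.14 and at late ring 7.33 ± 2.30, where the 7 embryos ran from 4.92 to 11.56. The SD between embryos was thus lowest at cleavage, where the level was highest, and all cleavage embryos lay within 11.42 to 13.13. Larvae were at 7.79 ± 1.79 (n = 13), from 4.76 to 10.76, which overlaps with all embryo stages but cleavage.

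The tight set was also widely spread after the embryo. In larvae the SDs of its 4 gene models were 1.93, 1.79, 1.69 and 1.79, which ranked 5, 9, 18 and 10 of the 870. Over both number sets, individuals at settlement were at 10.05 ± 2.20 (n = 10) and individuals at mat-formation at 9.75 ± 2.83 (n = 34). Of the 25 mat-formation libraries numbered 1 to 100, 22 held under 100000 counts. In these 2 SDs, differences in depth or number set and differences between individuals cannot be told apart. The set held 23.2% of the counts of juvenile replicate 1, a library of 38188 counts. Among embryos its mean level had an r of -0.03 with that of the first set across the 49, and across larvae the r was 0.43.

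The largest group, of 13, rose and fell with development and spread most where it did so. It held Aqu2.1.26371_001 and Aqu2.1.27857_001, the 2 members with the highest mean r to the rest, with Aqu2.1.13078_001, Aqu2.1.26337_001, Aqu2.1.01745_001, Aqu2.1.05941_001, Aqu2.1.26384_001, Aqu2.1.26374_001, Aqu2.1.14209_001, Aqu2.1.34269_001, Aqu2.1.26385_001, Aqu2.1.27858_001 and Aqu2.1.31479_001. Their mean level was 5.28 ± 1.76 (SD, n = 7) at cleavage, 10.39 ± 0.76 at brown, 11.13 ± 0.78 at cloud and 11.60 ± 0.41 at spot. It was 10.43 ± 0.98 at late spot, 10.52 ± 0.64 at ring and 7.04 ± 2.40 at late ring. The 7 late ring embryos ran from 2.95 to 10.04, so that the lowest lay below all 13 larvae and the highest within the range of the ring embryos.

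Aqu2.1.26371_001 shows the pattern in a single gene model. At cleavage the lowest, median and highest values were 2.50, 5.24 and 9.56, at spot 11.00, 11.57 and 12.29, and at late ring 0.00, 5.60 and 8.75. The spot embryos lay close together and did not overlap with those of cleavage or late ring. Aqu2.1.27857_001 ran from 0.00 to 6.32 at cleavage, 8.73 to 11.37 at spot and 0.00 to 7.47 at late ring. Of the gene models of similar level outside the group, 19 had an r of at least 0.7 to the mean of the 13 and 1 had an r of -0.7 or lower.

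The group of 13 stayed low in the larva and its covariation there could not be judged. Larvae were at 4.10 ± 0.52 (n = 13), from 3.19 to 4.65, and adults at 4.85 ± 0.93 (n = 3). The median r of the 13 was 0.75 across embryos, 0.19 across larvae and 0.26 across numbers 101 to 124. At such low counts a weak r is no finding. Across the few and shallow settlement libraries numbered 1 to 100 the median r of the 13 was 0.58, against 0.11 over all pairs of the 870. Of the 25 individuals at mat-formation with numbers 1 to 100, 22 had under 100000 counts and the deepest had 235043. In these 25 the mean level ran from 2.94 to 10.84, against 1.93 to 2.96 in the 9 with numbers 101 to 124. Depth and number set go together in these 34, so they cannot be told apart.

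A group of 6 followed a later course. Its 2 central members were Aqu2.1.36100_001 and Aqu2.1.25753_001, beside Aqu2.1.34942_001, Aqu2.1.34310_001, Aqu2.1.21531_001 and Aqu2.1.33024_001. The mean level was 4.35 ± 1.39 (SD, n = 7) at cleavage, 5.65 ± 1.16 at brown, 8.23 ± 0.26 at cloud, 9.69 ± 0.46 at ring and 8.58 ± 1.31 at late ring. Larvae were at 7.44 ± 0.47 (n = 13). Late ring embryos ran from 6.03 to 9.91. Aqu2.1.36100_001 was at 5.85 in late ring replicate 7 and at 9.38 to 11.31 in the 6 other late ring embryos. The median r was 0.56 across embryos, 0.47 across larvae and -0.04 across numbers 101 to 124.

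A group of 5 was high in single embryos that were low in the group of 13. Aqu2.1.33581_001 and Aqu2.1.25862_001 were central to it, beside Aqu2.1.23375_001, Aqu2.1.33660_001 and Aqu2.1.36410_001. The mean level was 10.22 ± 0.50 (SD, n = 7) at cleavage, 7.57 ± 0.88 at spot, 8.90 ± 1.45 at late ring and 9.49 ± 0.30 (n = 13) in larvae. Cloud replicate 1 was at 11.21 in this group while the 6 other cloud embryos were at 7.21 to 8.15, and it was the lowest cloud embryo in the group of 13, at 9.45. Late ring replicate 7 was the highest late ring embryo here, at 11.73, and the lowest in the group of 13, at 2.95. Neither of these 2 embryos was low in the first set of 4.

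Across all 49 embryos the means of the groups of 5 and 13 had an r of -0.57, and -0.48 to -0.62 when any 1 embryo was left out. Across the larvae it was 0.03, and across numbers 101 to 124 it was -0.48. The 2 groups' deviations thus ran in opposite directions among embryos. The first set of 4 had an r of -0.48 with the group of 13 across embryos, of -0.29 across larvae and of 0.00 across numbers 101 to 124.

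**Figure D3:**
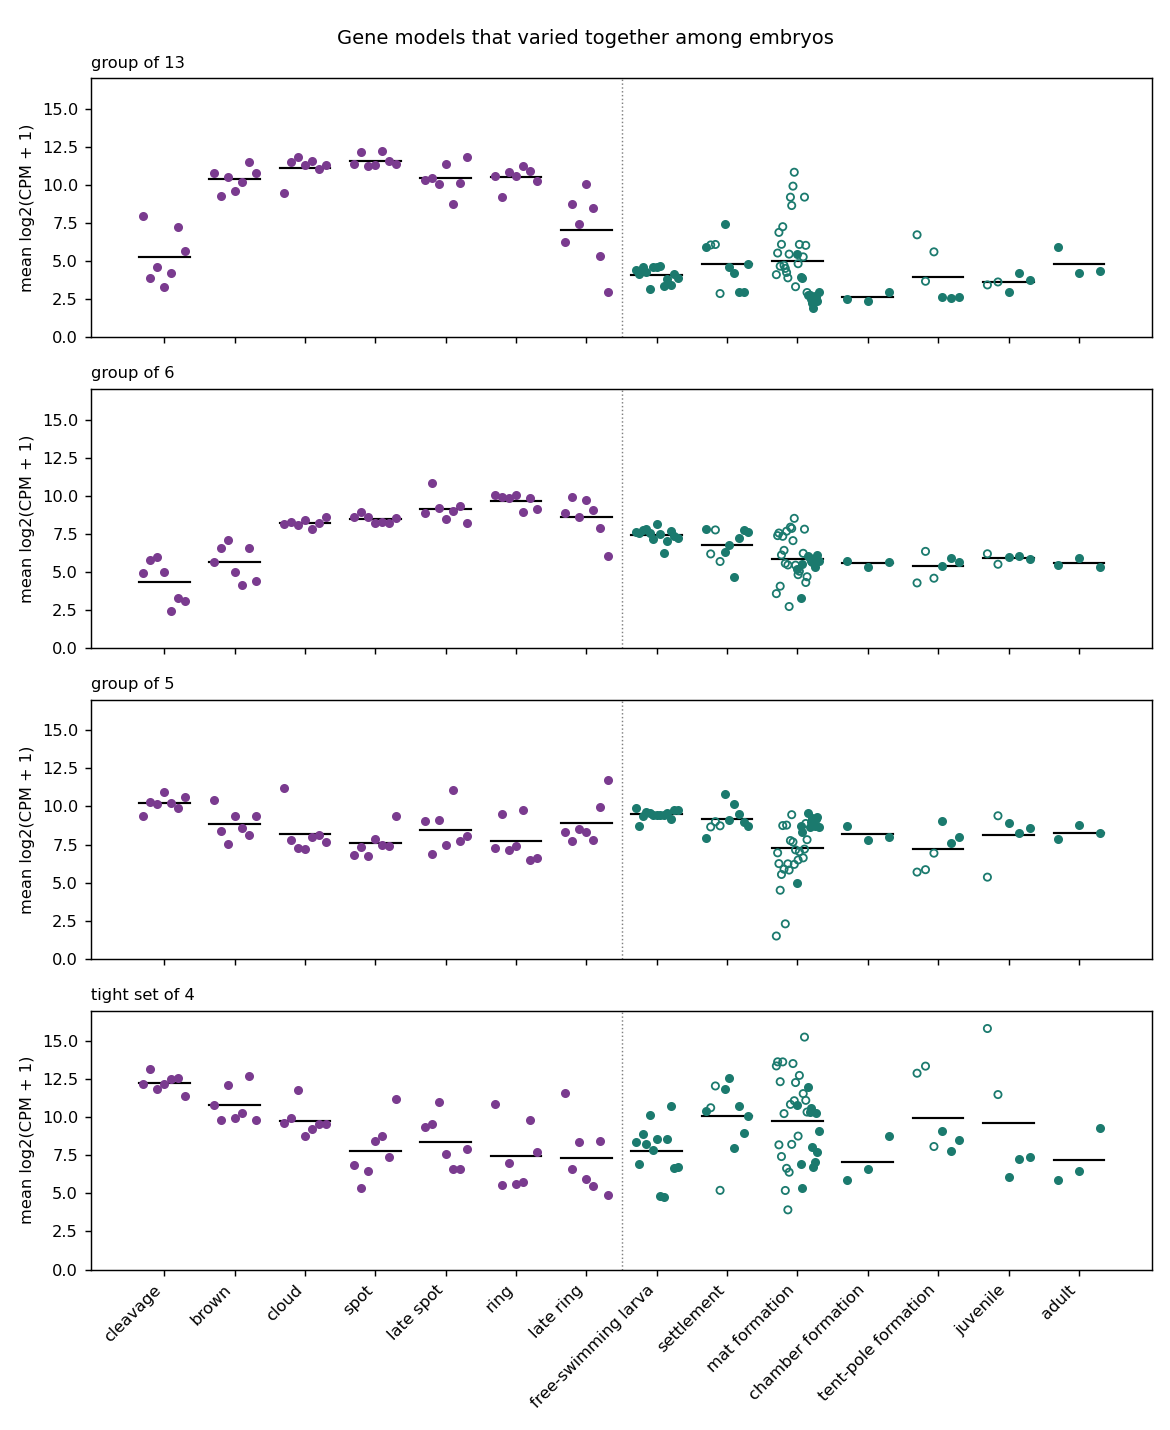
Mean log2(CPM + 1) of the group of 13, the group of 6, the group of 5 and the tight set of 4 in all 123 individuals with a stage label. Circles are individuals, filled for at least 100000 counts and open for fewer, black bars are stage means and the dotted line separates embryos from later stages. The group of 13 spans 2.95 to 10.04 at late ring and 3.19 to 4.65 in larvae, and the tight set spans 4.92 to 11.56 and 4.76 to 10.76.

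The other groups were small. A set of 3, Aqu2.1.12022_001, Aqu2.1.14377_001 and Aqu2.1.01056_001, chosen here after its values were seen, kept its covariation, with a median r of 0.80 across embryos, 0.77 across larvae and 0.67 across numbers 101 to 124. The other 2 sets of 4 had a median r of 0.56 and 0.61 in embryos and 0.44 and -0.04 in larvae. The other 2 sets of 3 had 0.55 and 0.60 in embryos and 0.43 and 0.36 in larvae. The 10 pairs had an r of 0.52 to 0.73 in embryos and -0.12 to 0.69 in larvae. The 31 gene models that stood alone had median SDs from 0.889 to 1.96.

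Some gene models with neighbouring identifiers were chosen together. Of the 100, 26 took part in 17 pairs of identifiers no more than 10 apart, and 4 of the pairs were in the same group. Their median r was 0.41 across embryos and 0.18 across larvae, against 0.11 and 0.10 for the 773 such pairs of the 870. Aqu2.1.26371_001 and Aqu2.1.26374_001 had an r of 0.93 across embryos. Identifiers were not placed on a genome here.

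A wide spread alone did not put neighbours into one group. Aqu2.1.13167_001 and Aqu2.1.13168_001, which ranked 4 and 6 and were chosen after their values were seen, had an r of 0.37 across embryos, -0.09 across larvae and -0.45 across numbers 101 to 124. Aqu2.1.13168_001 had the highest larval SD of all 870, 3.11, with larvae from 3.10 through a median of 10.63 to 13.02. Its late ring embryos ran from 2.17 to 11.18, and its 3 adults stood at 14.86, 15.19 and 15.27. Aqu2.1.13167_001 ran from 6.01 to 12.31 in larvae. Individuals thus differed widely in Aqu2.1.13168_001 as embryos and as larvae, and the 3 adults lay close together above every embryo and larva.

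Gene models that differed between embryos of one stage tended to differ between larvae, which took no part in the choice. The median larval SD of the 100 was 0.98, against 0.57 over the 870. Of the 100 highest larval SDs 43 belonged to the 100 gene models, where the background is 11.5% of the 870, and 88 of the 100 were above the median of the 870. Among gene models with a larval mean of at least 7, 47 of the 100 had a median larval SD of 0.94, against 0.54 for all 642. Of these 47, 39 were above that median. The next larval SDs after Aqu2.1.13168_001 were those of Aqu2.1.27315_001, at 2.02, and Aqu2.1.35157_001, at 2.01.

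The spread was also seen in later individuals numbered 101 to 124, which are deep. Pooled within stages over 18 degrees of freedom, the median SD of the 100 was 0.90, against 0.44 over the 870. Of the 100 highest SDs there 47 belonged to the 100 gene models, again against a background of 11.5%, and 96 of the 100 were above the median. Both in larvae and in these later individuals, 33 were among the highest 100. Low levels are noisier, and 21 of the 100 had a larval mean below 5. The median counting SD of the 100 in larvae was 0.19.

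**Figure D4:**
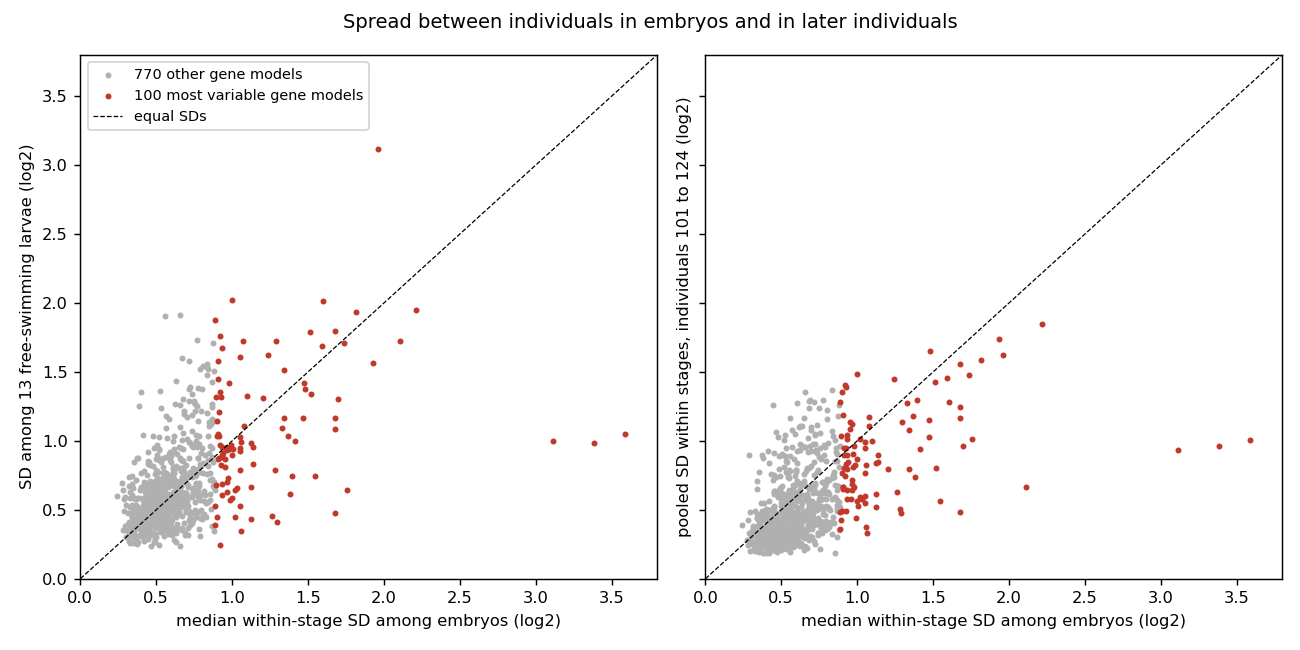
Each point is 1 of 870 gene models. The horizontal axis is the median within-stage SD among embryos, which chose the 100 red points, and the vertical axis is the SD among 13 larvae (left) or the SD pooled within stages among individuals 101 to 124 (right), all in log2 units. Red points have a median of 0.98 on the left and 0.90 on the right, against 0.57 and 0.44 over all points. The 3 rightmost points drop to near the medians of the red points. On the right, without juvenile replicate 5, the SDs of these 3 were 0.46, 0.38 and 0.48.

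Stage differences of the 100 gene models were tested next with edgeR's quasi-likelihood test over all gene models, with Benjamini-Hochberg adjustment. Between late ring and the larva the change was nearly all downward. Of 92 gene models of the 100 that passed the filter on low counts, 35 fell and 1 rose in larvae, where the background over all gene models tested is 11.7% in either direction, 8.46% down and 3.21% up. Over the gene models with an embryo mean of at least 7, 25.5% were called. The median log2 fold change was -0.84 over the 92 and 0.01 over all. Over the gene models with an embryo mean of at least 7 it was -0.36. The choice required a high mean in embryos and not in larvae, which favours a fall at this step. The late ring libraries were also among those that made the choice.

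All 9 members of the group of 13 that passed the filter fell, as did 5 of the 6 members of the group of 6 and 1 of the group of 5. Most of the 35 that fell lay outside these groups. The groups were formed on covariation that includes these late ring embryos. In larvae the median of the mean counts of the group of 13 was 13. Its members could thus pass the filter through late ring alone, so their joint fall is a description. Aqu2.1.01745_001 of the group of 13 stood at 3.63, 6.24, 8.77, 10.66, 11.31, 11.42 and 13.81 in the late ring embryos and at 5.05 to 6.66 in larvae, with a median of 6.07. One late ring embryo was below all larvae and another within their range. Its log2 fold change was -5.92 (standard error 0.73, edgeR adjusted p = 1.55e-05). The 1 that rose, Aqu2.1.19143_001, was at 6.40 to 8.89 in late ring embryos and 8.24 to 10.63 in larvae, a log2 fold change of 1.37 (standard error 0.35, edgeR adjusted p = 0.0122). Of the 8 gene models of both sets of 4, edgeR called 0 and DESeq2 called 0, with 0 and 1 at an unadjusted p under 0.05.

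From larva to settlement, within numbers 1 to 100, most called members rose. Of 89 that passed the filter, 27 rose and 7 fell, where the background is 27.3% in either direction, 12.3% up and 15.0% down, and 34.1% for gene models with an embryo mean of at least 7. All 4 of the tight set rose, with log2 fold changes of 2.65 to 3.01 and edgeR adjusted p from 0.0013 to 0.0065. Aqu2.1.00982_001 ran from 4.43 through a median of 10.48 to 12.56 in 7 individuals at settlement and from 4.17 through 8.46 to 11.03 in larvae, so the groups overlapped. Settlement libraries of this number set are shallow, at 17429 to 300386 counts. With no filter on low counts the balance of the calls turned, with 19 members up and 28 down, and 25 of the 34 calls were shared.

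In the first set, edgeR called 2 of 4 at settlement, both upward. Aqu2.1.33181_001 rose by a log2 fold change of 2.12 (standard error 0.51, edgeR adjusted p = 0.0028) and Aqu2.1.26071_001 by 3.07 (standard error 0.65, edgeR adjusted p = 0.00085). For Aqu2.1.35836_001 the log2 fold change was 1.23 (edgeR adjusted p = 0.057) and for Aqu2.1.30620_001 0.90 (edgeR adjusted p = 0.19). Aqu2.1.35836_001 was called in 5 of 11 alternatives, namely with DESeq2, with DESeq2 size factors in edgeR and without settlement replicate 2, 4 or 7, and its adjusted p ran from 0.023 to 0.38. Aqu2.1.30620_001 was called in 0 of 11, with an adjusted p of 0.099 to 0.85. Of the 8 members of the group of 13 that passed, 5 rose. The group was low in larvae, so its members could pass the filter through settlement alone. This count is thus a description.

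The extremes at settlement were gene models outside the larger groups. Aqu2.1.34247_001 was at 3.04 to 6.29 in larvae and at 4.43, 5.47, 8.26, 8.52, 8.85, 11.19 and 11.41 at settlement. Its log2 fold change was 4.88 (standard error 0.61, edgeR adjusted p = 1.77e-06), with 5 of 7 individuals above all larvae. Aqu2.1.13000_001 was at 6.19 to 9.64 in larvae and at 0.00 to 6.12 at settlement, with no overlap and at most 8 counts in a settlement library. It fell by a log2 fold change of 3.56 on the fitted scale (standard error 0.70, edgeR adjusted p = 0.00038).

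From settlement to juvenile, within numbers 101 to 124, 97 of the 100 passed the filter, and 15 rose and 25 fell. The background is 23.3% in either direction, 12.9% up and 10.5% down, and 35.9% for gene models with an embryo mean of at least 7. All 4 of the first set fell, with log2 fold changes of -1.94 to -2.97 and edgeR adjusted p from 0.0069 to 0.025. Aqu2.1.35836_001 was at 13.47, 13.72 and 13.76 at settlement and at 7.64, 11.96 and 12.67 in the juveniles. Without juvenile replicate 5 its log2 fold change was -1.54 in place of -2.17 and the call held. Without settlement replicate 10 or juvenile replicate 3 it was not called, and neither were Aqu2.1.33181_001 and Aqu2.1.30620_001. Aqu2.1.33181_001 was also not called without settlement replicate 8. Over 10 alternatives the adjusted p reached 0.059 for Aqu2.1.35836_001, 0.080 for Aqu2.1.33181_001 and 0.056 for Aqu2.1.30620_001.

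All 4 of the tight set fell too, with log2 fold changes of -3.25 to -3.55 and edgeR adjusted p from 0.041 to 0.047. Aqu2.1.00982_001 was at 9.01, 10.21 and 10.81 at settlement and at 6.02, 7.27 and 7.45 in the juveniles, with no overlap. These 4 calls lie near the threshold and Aqu2.1.00982_001 was called in 2 of 10 alternatives, with an adjusted p of up to 0.16. The total of 40 called members was 26 without settlement replicate 10.

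Over the 97 the median log2 fold change at this step was -0.26, and it was -0.34 in the group of 13 and -1.14 in the group of 6. The called members with the highest and the lowest log2 fold change belonged to neither of the sets of 4 described above. Aqu2.1.34482_001 rose from 4.68, 4.91 and 5.53 to 12.41, 12.56 and 13.32, a log2 fold change of 7.48 (standard error 0.43, edgeR adjusted p = 9.69e-11). In adults it was at 13.21, 13.28 and 13.30. As a late ring embryo it ran from 0.00 to 8.39, with an SD of 3.55, which was its highest among the embryo stages. Aqu2.1.27315_001 stood at 9.02, 9.79 and 9.93 at settlement and at 1.75, 2.73 and 2.78 in the juveniles, and fell by a log2 fold change of 7.75 (standard error 1.24, edgeR adjusted p = 6.80e-05). In larvae it ran from 2.17 to 9.29.

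Between juvenile and adult 6 members rose and 1 fell of the 97 that passed, where the background is 4.08% in either direction, 2.72% up and 1.37% down, and 3.13% for gene models with an embryo mean of at least 7. Aqu2.1.27115_001 was at 0.67, 1.94 and 1.98 in juveniles and at 7.10, 7.62 and 7.75 in adults, a log2 fold change of 6.41 (standard error 0.97, edgeR adjusted p = 0.00035). Aqu2.1.29886_001 was at 7.65, 7.87 and 8.63 in juveniles and at 3.79, 4.80 and 5.31 in adults, and fell by a log2 fold change of 3.37 (standard error 0.41, edgeR adjusted p = 1.85e-05). Neither gene model overlapped between the stages. The 7 calls became 3 without juvenile replicate 3 and 4 without juvenile replicate 5, or 13 with DESeq2. Of the 8 gene models of both sets of 4, edgeR and DESeq2 each called 0, and 0 had an unadjusted p under 0.05 in either.

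The library total was set beside the spread as a technical measure. With stage in the fit, edgeR called 1 of the 100 for the log10 total among embryos, where the background is 3.05% in either direction, 2.69% up and 0.362% down, and 11.3% of gene models with an embryo mean of at least 7 were called. The 1 called was Aqu2.1.07543_001, with a log2 change of 1.95 per 10-fold total (standard error 0.49, edgeR adjusted p = 0.023). At an unadjusted p under 0.05 edgeR had 16 of the 100, and 1728 of all 9122 gene models tested. With DESeq2 size factors edgeR called 0, with 13 at an unadjusted p under 0.05, and DESeq2 itself called 2. The share over all gene models at an unadjusted p under 0.05 was not taken for these alternatives. Within stages the mean level of the groups had an r with the log10 total of 0.25 in the group of 13, -0.27 in the group of 6, -0.09 in the group of 5, -0.03 in the first set of 4 and -0.20 in the tight set. The part of depth in the spread was not tested further.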

How the data were processed

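The deposited table holds whole-number counts per gene model and library, not normalized, which the authors made from CEL-seq reads of single individuals. Per the submitters' processing notes, the tools were Bowtie2 2.1.0, HTSeq 0.5.4p3 and CASAVA 1.8. Not given in the sources used here are their settings, the genome build, the annotation, the handling of reads with several matches and whether molecular identifiers were used. The table was held only in part and ends within its last line, so 36868 complete gene models were used. Stages come from the labels, and 1 individual without a stage entered no comparison. Within a stage, replicates are numbered by rising embryo number, which pairs no samples.

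Counts were divided by the library total, multiplied by 1000000 (CPM) and set on the log2 scale with a pseudocount of 1. The 100 gene models, the sets and the tests were chosen with earlier results of these data known. Covariation was measured as Pearson's r of deviations from stage means, and groups come from average linkage on 1 minus r, with the tree divided at 0.5. Expected counting SDs are those of Poisson counts at the measured depth.

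Stage differences were tested two-sided in R 4.3.3 by the quasi-likelihood test of edgeR 4.0.16 after TMM scaling, over all gene models that passed filterByExpr (minimum count 10, minimum total 15). Calls were made at 0.05 after Benjamini-Hochberg adjustment. The fit for numbers 101 to 124 held all 24 libraries. Standard errors were derived from the log2 fold change and its F statistic. Fold changes of a set are given beside those of all gene models, with no test of the set. DESeq2 1.42.0, other scalings, filters and left-out libraries were alternatives. On counts simulated from these libraries, edgeR recovered 78.8% of gene models changed 8-fold between late ring and larva (4896 tested), 90.9% between larva and settlement (3581 tested), 43.9% between settlement and juvenile and 54.5% between juvenile and adult (10825 tested each), and 51.5% for the library total (9122 tested). Selection and grouping were also checked on simulated data. Other steps ran in Python 3.11.15 (pandas 2.3.3, scipy 1.17.1, numpy 2.4.6, matplotlib 3.10.9).

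Gene models are named by rule: the highest median SD, the 2 members with the highest mean r to their group in groups of at least 5, the highest and the lowest log2 fold change called in each comparison, and those on both sides of the rank of 100. Others are said to be chosen after their values were seen, except where the members of a group are listed.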

Additional observations from a re-analysis of the deposited data

Results flagged for a closer look

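Sets and named gene models were checked at the stages of 4 to 10 individuals for an individual far from the others, by the gap to its nearest neighbour over the whole range (Dixon's 95% limit). Of 200 such checks 33 were flagged, in 16 individuals. Chance flags about 1 in 20, and the values of one set share their libraries, so they are not separate events. All values are log2(CPM + 1).

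The low embryo of brown, replicate 6, and that of late ring, replicate 2, stood alone in their stages. In brown replicate 6 the first set of 4 was at 7.40, Aqu2.1.35836_001 at 6.47, Aqu2.1.33181_001 at 6.21 and Aqu2.1.30620_001 at 8.75. In late ring replicate 2 they were at 5.18, 4.44, 5.01 and 6.99. Their libraries held 1466998 and 1694159 counts.

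Cloud replicate 1 was the lowest of its stage in the group of 13, at 9.45, and the highest in the group of 5, at 11.21, with Aqu2.1.33581_001 at 12.30 and Aqu2.1.25862_001 at 12.51. Spot replicate 7 was the highest of its stage in the group of 5, at 9.37, with Aqu2.1.33581_001 at 11.39 and Aqu2.1.25862_001 at 10.75. Late spot replicate 5 was the highest in Aqu2.1.33581_001, at 13.23. Late spot replicate 2, the shallowest embryo library with 147197 counts, was the highest in the group of 6, at 10.82, and in Aqu2.1.25753_001, at 11.48.

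Cloud replicate 3 was the highest of its stage in the tight set, at 11.75, with Aqu2.1.00982_001 at 11.82, Aqu2.1.00030_001 at 12.23 and Aqu2.1.09853_001 at 11.45. Single low embryos were cleavage replicate 7 and spot replicate 2 in Aqu2.1.13167_001, at 5.76 and 6.48, late ring replicate 7 in Aqu2.1.36100_001, at 5.85, and spot replicate 6 in Aqu2.1.25753_001, at 6.90. Spot replicate 5 was the highest in Aqu2.1.27857_001, at 11.37.

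The flags after the larva fell on shallow libraries. Juvenile replicate 1, with 38188 counts, was the lowest in the group of 5, at 5.36, and in Aqu2.1.25862_001, at 0.00, and the highest in Aqu2.1.26071_001, at 12.34. Juvenile replicate 2, with 21359 counts, was the lowest in Aqu2.1.13167_001, at 11.16. At tent-pole-formation, replicate 2 was at 0.00 in Aqu2.1.33581_001 and replicate 1 at 0.00 in Aqu2.1.25862_001, in libraries of 31360 and 16097 counts, where a value of 0.00 means no count.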

How the results depend on the processing

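Of 467 alternative values, 0 changed sign. Counts and SDs among them cannot do so, and the balance of rises and falls among called members was not part of this check. Of the 100 gene models, 44 were kept with a mean of at least 8, which are all those of the 100 that reach that mean, 51 with a mean of at least 6, 65 with the mean of the 7 SDs and 64 with the median absolute deviation. Between 69 and 77 were kept without any 1 stage, 90 to 98 without any 1 embryo, and 88 without the 3 embryo libraries under 300000 counts, an alternative added after the data were seen. The larval median SD of the 100 was 0.87 with a pseudocount of 5, 0.93 as a median absolute deviation and 0.95 to 1.00 without any 1 larva. The median r of the group of 13 in larvae was 0.14 to 0.23 without any 1 larva. Called members were 29 to 43 between late ring and larva and 33 to 38 between larva and settlement when 1 late ring or 1 settlement library was left out. They were 26 to 36 between settlement and juvenile, lowest without settlement replicate 10, and 38 with a replicate block for the runs of 8 numbers. Between juvenile and adult they were 13 with DESeq2, 12 with no filter on low counts, 6 with the block and 3 to 8 without 1 library. For the library total they were 2 with DESeq2, 0 with DESeq2 size factors in edgeR, where 40 gene models in all were called, and 12 with no filter. The causes were not tested. Of 253 alternative values of the named gene models in the comparisons, 215 kept their side of the threshold. Without a filter on low counts, 19 of the called members rose and 28 fell between larva and settlement, against 27 and 7. Shallow libraries limit what can be said after the larva, and the libraries numbered 1 to 100 and 101 to 124 differ in depth at the stages that hold both.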

Other observations

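The 1 individual without a stage label, a library of 23082 counts, stood above the embryo gap in the 3 most variable gene models. It was at 14.42 in Aqu2.1.35836_001, 14.78 in Aqu2.1.33181_001 and 14.99 in Aqu2.1.30620_001, and these held 8.27% of its counts. Its group of 13 was at 4.59, its group of 6 at 7.17, its group of 5 at 7.20 and its tight set at 9.66.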
